A study of Mus musculus with 6 samples.

Results

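Toll-like receptors are membrane proteins of innate immune cells, and in part of epithelium and endothelium, that bind molecules of microbes and of damaged tissue through a leucine-rich ectodomain and signal through an intracellular TIR domain. Receptors of the cell surface bind lipoproteins, lipopolysaccharide and flagellin, and those of endosomes bind nucleic acids. Through the adaptors MyD88 and TRIF they activate NF-kB, the same factor that TNF activates, and interferon regulatory factors, and in the lung alveolar macrophages carry many of them. The 10 receptor genes Tlr1, Tlr2, Tlr3, Tlr4, Tlr5, Tlr6, Tlr7, Tlr8, Tlr9 and Tlr13 were taken by symbol from the 49568 gene rows of a bulk RNA-sequencing table, and all 10 had a row. They were measured in whole lungs of 6 mice, 3 TNF+ mice, which carry a transgene of human TNF, and 3 TNF- wildtype littermates. All 6 mice were females at 4 months of age on a C57BL/6 background, and the labels name no treatment. The promoter and the expressing cells of the transgene are not given in the sources used here. The table holds mouse gene symbols, so the human transgene itself is not a row of it. The mouse gene Tnf had 106, 213 and 405 counts in TNF+ lungs 1, 2 and 3 against 16, 14 and 35 in TNF- lungs. Reads were mapped to the mouse genome, and whether reads of the human transgene were counted in this row was not tested.

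Total counts were between 25396923 and 32529408 per lung, at which 3 counts, the smallest number taken as detected, are 0.0922 to 0.118 CPM (counts scaled to library size). That floor covers counting error only. Gm42418 took 5.22% of the counts of TNF+ lung 1 and 0.0774% to 0.274% of those of the remaining lungs, and TNF- lung 1 held 102253 normalized counts of the squamous epithelium genes Krt4, Krt13, Krt5 and Rptn, against 12.3 to 130 in the others. Each receptor fold change below was therefore also computed without those 2 lungs. Normalized counts are counts scaled to a common library size with the TMM factors of edgeR. The lung label was borne out by the epithelial genes Epcam, Cdh1, Sftpc, Ager, Foxj1 and Scgb1a1, which summed to between 439627 and 1113314 normalized counts in every lung.

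The sequence shared by receptor genes bears on how far their counts can be told apart, since reads were 100 bases long. Tlr1 and Tlr6 lie next to each other on the minus strand of chromosome 5 of GRCm38 (mm10), at 64924679 to 64933563 and 64952031 to 64960097, with 18467 bases between them. Of the 100-base windows of the Tlr1 transcripts in GENCODE M21, 7.89% also occurred in Tlr6, and 7.09% of the Tlr6 windows occurred in Tlr1. The longest identical run was 229 bases of coding sequence at chr5:64925537-64925765 in Tlr1 and chr5:64953828-64954056 in Tlr6, and it is shown because a read inside it cannot be assigned to either gene.
Tlr1 and Tlr6 shared coding run: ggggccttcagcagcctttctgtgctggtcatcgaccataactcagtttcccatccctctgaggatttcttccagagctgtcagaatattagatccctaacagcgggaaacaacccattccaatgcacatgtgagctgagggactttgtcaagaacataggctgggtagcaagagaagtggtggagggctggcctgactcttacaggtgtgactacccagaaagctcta
Runs of at least 100 identical bases made up 556 bases, or 23.3%, of the 2385 coding bases of Tlr1. Tlr7 and Tlr8, neighbours on chromosome X with 40599 bases between them, shared no 100-base window, and their longest identical coding run was 13 bases. Tlr3 overlapped Gm45542 on the opposite strand over 381 of its 5207 exon bases. Gm45542 had 0 to 2 counts per lung. The remaining receptor genes shared no such window with another gene and overlapped none.

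Upstream sequence was read from RefSeq windows (GRCm38.p6) of 250 bases before the transcription start, which 8 of the 10 receptors had, in 10 windows. Tlr4 and Tlr7 had none. Parts that GENCODE M21 annotates as exon are not printed. The stretches shown are those of Tlr2, the receptor gene with the largest change, and of Tlr1 and Tlr9, which with Tlr6 held a motif match outside exons. Capitals mark the matches.
Tlr2, chr3:83841768-83841858, minus strand: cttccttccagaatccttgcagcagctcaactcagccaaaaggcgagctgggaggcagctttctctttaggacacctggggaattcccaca
Tlr1, chr5:64933564-64933808, minus strand: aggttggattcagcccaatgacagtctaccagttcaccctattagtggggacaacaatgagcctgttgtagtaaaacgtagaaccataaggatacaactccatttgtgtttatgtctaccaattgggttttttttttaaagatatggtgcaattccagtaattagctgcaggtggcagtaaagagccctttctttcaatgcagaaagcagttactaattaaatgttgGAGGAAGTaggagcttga
Tlr9, chr9:106222348-106222597, plus strand: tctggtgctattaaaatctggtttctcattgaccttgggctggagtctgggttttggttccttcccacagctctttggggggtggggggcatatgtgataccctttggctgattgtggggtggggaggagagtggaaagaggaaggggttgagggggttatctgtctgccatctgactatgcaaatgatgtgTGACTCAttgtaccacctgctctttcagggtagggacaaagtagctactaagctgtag
Both strands were searched for 4 motifs. GAGGAAGT, bound by PU.1 and related ETS factors, was found in Tlr1 only, against 2.44% of all 32851 windows. TGANTCA, the AP-1 motif, which reads as the same motif on both strands, was found in Tlr9 only, against 6.75% of all windows. An NF-kB motif, GGGA and TTTCC around any 1 base, was found in Tlr3 only, at bases that GENCODE annotates as exon, against 0.356% of all windows. An interferon-stimulated response element, GAAA repeated after any 2 bases, was found in Tlr6 only, as overlapping matches on the strand opposite the gene, in a window that lies in the intron of both Tlr6 transcripts of GENCODE M21, against 2.98% of all windows. None of the 4 motifs, in the exact forms given, was found in the windows of Tlr2, Tlr5, Tlr8 or Tlr13. NF-kB was searched in that 1 narrow form only. Sites of other forms were not searched for, so unmarked letters, those of Tlr2 included, are not shown to lack an NF-kB site. These matches describe letters in a short window and not binding.

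Of the 10 receptor genes, 8 were higher in TNF+ lungs than in TNF- lungs at an adjusted p under 0.05 (edgeR), and 24.0% of the 19199 genes tested were. Calls in either direction numbered 8 of 10, and 47.4% of all genes tested. No receptor gene was lower (0 of 10, and likewise 0 at an unadjusted p under 0.05, 0 with DESeq2 and 0 with limma-voom), against 23.4% of all genes tested. A rise of at least 1 on the log2 scale was found for 7 of the 10 receptors and for 10.3% of all genes, and a rise of at least 2 for 5 of the 10 and for 4.55% of all genes. The log2 fold changes ran from -0.26 to 3.43 with a median of 1.90, while the median over all tested genes was 0.03. All 10 genes passed the filter on low counts, so none was left out. In bulk RNA, more cells of a type and more RNA per cell cannot be told apart.

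**Figure D1:**
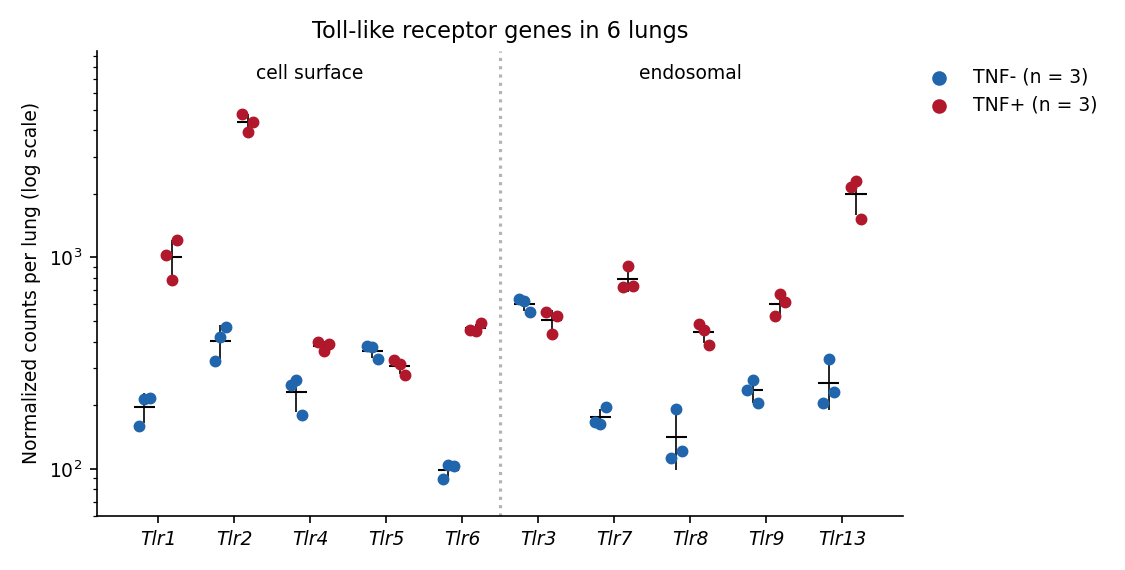
Normalized counts (log scale) of the 10 receptor genes in each of 3 TNF- (blue) and 3 TNF+ (red) lungs, with the mean as a horizontal line and the SD as a vertical line, cell surface receptors left and endosomal receptors right. The TNF+ lungs lie above the TNF- lungs for 8 genes, while for Tlr3 and Tlr5 they lie just below.

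Among cell surface receptors, Tlr2 changed most. Tlr2 forms heterodimers that bind bacterial lipoproteins, and its gene lies on chromosome 3 (83836272 to 83841767, minus strand). It had 4748, 3918 and 4384 normalized counts in TNF+ lungs 1, 2 and 3 and 324, 420 and 467 in TNF- lungs. The lowest TNF+ lung was thus far above the highest TNF- lung. The means were 4350 ± 416 and 404 ± 73.1 (SD, n = 3), a log2 fold change of 3.43 (SE 0.16, adjusted p = 4.99e-06, edgeR), or 10.8-fold, and 62 of the 19199 genes had a smaller p.

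Tlr1, which pairs with Tlr2 for triacylated lipoproteins, had 1025, 784 and 1204 normalized counts in TNF+ lungs and 159, 214 and 217 in TNF- lungs. The groups did not overlap, and the TNF+ lungs differed among themselves more than for most receptors, with a coefficient of variation of 21.0%. The log2 fold change of Tlr1 was 2.35 (SE 0.20, adjusted p = 5.52e-05, edgeR). Tlr6, the partner of Tlr2 for diacylated lipoproteins, had 452, 449 and 487 normalized counts against 89.8, 104 and 103. Its lungs were close together within each group, with coefficients of variation of 4.58% in TNF+ and 7.87% in TNF- lungs. The log2 fold change of Tlr6 was 2.23 (SE 0.14, adjusted p = 1.52e-05, edgeR).

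Tlr4, the signalling receptor for lipopolysaccharide (chromosome 4, 66827584 to 66930284, plus strand), had the smallest log2 fold change of the 8 genes that passed. It had 398, 359 and 389 normalized counts in TNF+ lungs and 250, 262 and 179 in TNF- lungs. Every TNF+ lung was above every TNF- lung, with a gap between 262 and 359. The log2 fold change was 0.73 (SE 0.17, adjusted p = 0.00868, edgeR), or 1.66-fold. Without TNF+ lung 1 and TNF- lung 1 it was also 0.73, at an adjusted p of 0.0499.

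Tlr5, the flagellin receptor (chromosome 1, 182954788 to 182976044, plus strand), had 328, 313 and 278 normalized counts in TNF+ lungs and 379, 378 and 329 in TNF- lungs. The groups lay side by side without overlap, with the highest TNF+ lung at 328 and the lowest TNF- lung at 329. Its log2 fold change of -0.24 (SE 0.13, adjusted p = 0.17, edgeR) did not pass the cutoff.

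Among endosomal receptors, Tlr13 changed most. Tlr13 binds bacterial ribosomal RNA in mice, and its gene lies on chromosome X (106143204 to 106160493, plus strand). It had 2158, 2309 and 1523 normalized counts in TNF+ lungs and 205, 330 and 230 in TNF- lungs. TNF+ lung 3 was the lowest of its group and still above all TNF- lungs. The log2 fold change was 2.97 (SE 0.22, adjusted p = 3.48e-05, edgeR), or 7.82-fold.

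Tlr7, a receptor for RNA on chromosome X (167304929 to 167330558, minus strand), had 724, 913 and 736 normalized counts in TNF+ lungs and 167, 163 and 195 in TNF- lungs. The groups were well apart, and the log2 fold change was 2.17 (SE 0.15, adjusted p = 2.1e-05, edgeR). Tlr8, its neighbour and a receptor for RNA fragments (167242696 to 167264329, minus strand), had 484, 455 and 387 normalized counts against 113, 192 and 121. TNF- lung 2 was the high one of its group, which gave the largest coefficient of variation of any receptor in either group, 30.6%. The log2 fold change was 1.64 (SE 0.22, adjusted p = 0.000636, edgeR), and it was 1.91 at the upper end with each lung left out in turn.

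Tlr9, the receptor for unmethylated CpG DNA (chromosome 9, 106222598 to 106226883, plus strand), had 526, 672 and 614 normalized counts in TNF+ lungs and 235, 264 and 205 in TNF- lungs. The groups did not overlap, and the log2 fold change was 1.36 (SE 0.15, adjusted p = 0.000211, edgeR), or 2.58-fold. Tlr3, the receptor for double-stranded RNA, which signals through TRIF (chromosome 8, 45395665 to 45411080, minus strand), was with Tlr5 the receptor not called. It had 549, 433 and 530 normalized counts in TNF+ lungs and 636, 623 and 554 in TNF- lungs. The TNF+ lungs were all below the TNF- lungs, by a margin of 549 against 554, and the log2 fold change of -0.26 (SE 0.13, adjusted p = 0.128, edgeR) did not pass the cutoff. Groups with TNF+ below TNF- and no overlap, as for Tlr3 and Tlr5, were found for 28.2% of all tested genes, and the opposite, as for the other 8 receptors, for 30.5%. Together, groups without overlap were found for all 10 receptors and for 58.7% of all tested genes.

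**Figure D2:**
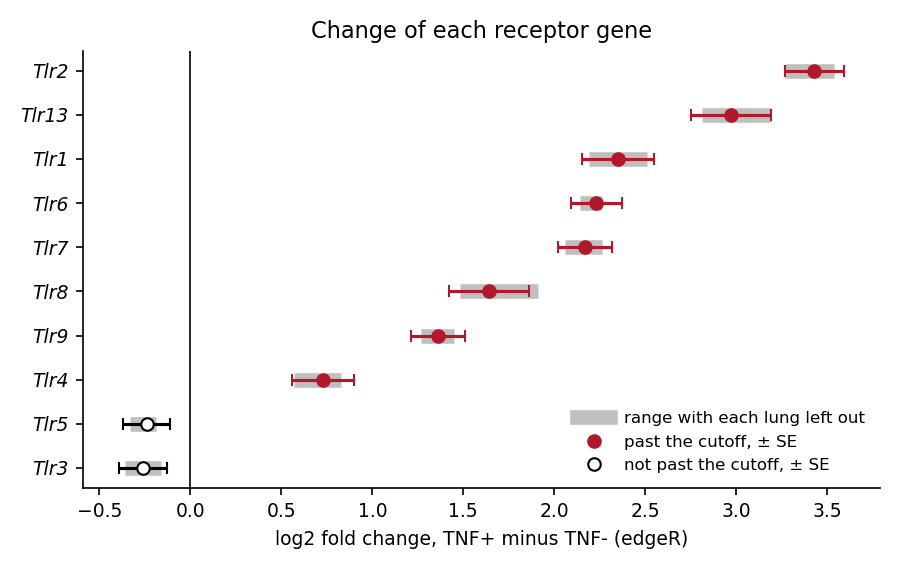
Log2 fold change (TNF+ minus TNF-) of each receptor gene with its standard error, filled red where it passed the cutoff and open where it did not, over a grey bar for the range with each lung left out in turn. Tlr2 stands at 3.43, Tlr13 at 2.97, and Tlr3 and Tlr5 lie below 0 at -0.26 and -0.24.

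Of the mouse receptor genes outside the 10, Tlr11 and Tlr12, which bind profilin of protozoa, were also higher. Tlr11 had 136, 117 and 114 normalized counts in TNF+ lungs and 25.8, 31.6 and 19.5 in TNF- lungs, a log2 fold change of 2.25 (adjusted p = 0.000211, edgeR). Tlr12 had 281, 289 and 324 against 142, 184 and 219. Its log2 fold change of 0.71 (adjusted p = 0.0137, edgeR) was 0.54 at an adjusted p of 0.0536 without TNF- lung 1, and the cutoff was also missed without TNF+ lung 3.

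To compare levels between receptor genes, normalized counts were divided by the exon length of each gene in kilobases. On this scale the levels in TNF- lungs lay within a narrow range, from 26.5 ± 2.09 (SD, n = 3) for Tlr6 to 134 ± 24.2 (SD, n = 3) for Tlr2. The order was Tlr2, Tlr3, Tlr5, Tlr9, Tlr13, Tlr1, Tlr7, Tlr4, Tlr8 and Tlr6. Of the 9 neighbouring pairs in that order, the 3 values of the genes overlapped in 7, and they were apart only between Tlr3 and Tlr5 and between Tlr8 and Tlr6. Of the overlapping pairs, Tlr5 with Tlr9 and Tlr1 with Tlr7 kept their order within each of the 3 TNF- lungs. In TNF+ lungs the levels per kilobase spread from 64.0 ± 5.34 (SD, n = 3) for Tlr5 to 1443 ± 138 (SD, n = 3) for Tlr2, and the order was Tlr2, Tlr13, Tlr1, Tlr7, Tlr9, Tlr6, Tlr8, Tlr3, Tlr4 and Tlr5. Neighbours overlapped in 4 of the 9 pairs, namely Tlr13 with Tlr1, Tlr7 with Tlr9, Tlr6 with Tlr8 and Tlr4 with Tlr5. Of these, only Tlr7 with Tlr9 kept its order within each of the 3 TNF+ lungs.

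Summed over the 10 genes, the level per kilobase was 3214, 2948 and 2993 in TNF+ lungs 1, 2 and 3 and 613, 722 and 649 in TNF- lungs. Tlr2 made up 44.1% to 49.0% of this sum in TNF+ lungs and 17.5% to 23.9% in TNF- lungs. By the group means it held the largest share in both groups, but in TNF- lung 1 Tlr3 was above it, at 122 against 107 normalized counts per kilobase. Tlr13 held 11.8% to 18.2% of the sum in TNF+ and 7.78% to 10.6% in TNF- lungs. The share of Tlr3 went the other way, from 16.4% to 19.9% in TNF- lungs to 2.82% to 3.40% in TNF+ lungs, and that of Tlr5 from 10.6% to 12.9% to 1.94% to 2.22%. The endosomal receptors together held 46.3% to 50.6% of the sum in TNF- lungs and 30.7% to 39.5% in TNF+ lungs. Shares within a lung sum to the whole, so a share can fall while the level of the gene does not.

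**Figure D3:**
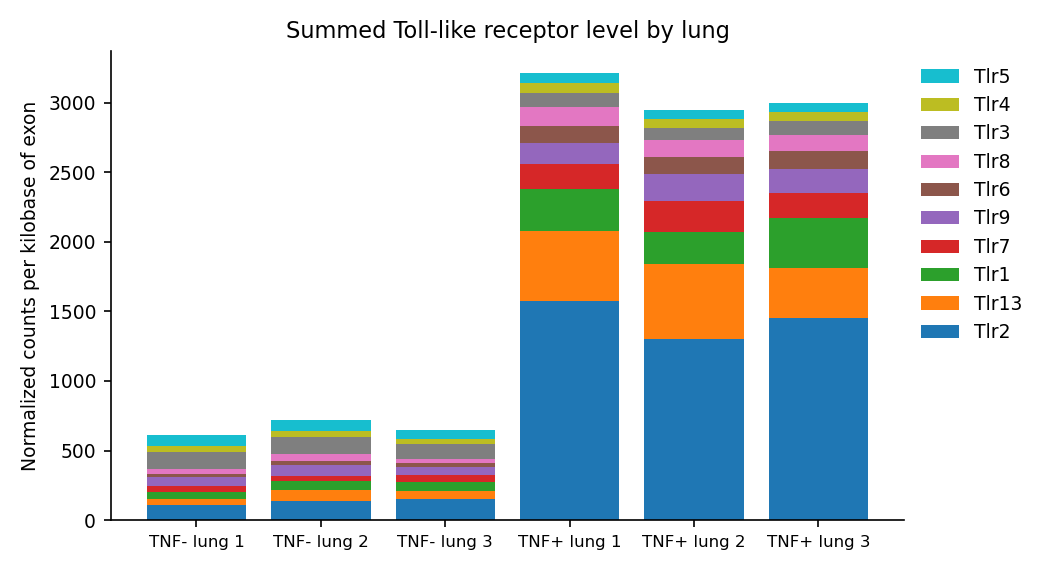
Stacked bars of normalized counts per kilobase of exon for the 10 receptor genes in each lung, TNF- lungs left and TNF+ lungs right, starting at 0. The sums are 613 to 722 in TNF- and 2948 to 3214 in TNF+ lungs, and Tlr2, at the base, is the tallest segment in TNF+ lungs.

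Ratios of genes whose products work together, or that are neighbouring copies, were taken within each lung, where library scaling cancels. With 3 lungs against 3 the two-sided exact permutation test cannot go below p = 0.1. The log2 ratio of Tlr1 to Tlr2 was -2.21, -2.32 and -1.86 in TNF+ lungs and -1.02, -0.97 and -1.10 in TNF- lungs. The groups were apart, with a difference of -1.10 (exact permutation p = 0.1, 0.15 adjusted over the 6 ratios), with less Tlr1 for each count of Tlr2 in TNF+ lungs. That of Tlr6 to Tlr2 was -3.39, -3.12 and -3.16 in TNF+ lungs against -1.83, -2.0 and -2.16, again apart (difference -1.23, exact p = 0.1). Tlr1 to Tlr6 lay at 1.18, 0.80 and 1.30 against 0.81, 1.03 and 1.06. Here the groups overlapped (difference 0.13, exact p = 0.5), and in linear terms Tlr1 had 1.74 to 2.46 times the normalized counts of Tlr6 over the 6 lungs. Tlr7 to Tlr8 overlapped as well, at 0.58, 1.00 and 0.92 in TNF+ lungs and 0.56, -0.23 and 0.68 in TNF- lungs (difference 0.50, exact p = 0.2).

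For the lipopolysaccharide receptor complex, Tlr4 was lower against both partners in every TNF+ lung than in any TNF- lung. The log2 ratio of Tlr4 to Ly96, which encodes the lipopolysaccharide-binding subunit MD-2, was 1.55, 1.38 and 1.12 in TNF+ lungs and 2.37, 2.17 and 1.60 in TNF- lungs (difference -0.70, exact permutation p = 0.1). The ratio of Tlr4 to Cd14, which encodes the protein that hands lipopolysaccharide to MD-2, was -4.03, -3.74 and -3.12 in TNF+ lungs and -1.33, -1.46 and -2.47 in TNF- lungs (difference -1.88, exact permutation p = 0.1). Neither ratio overlapped between the groups.

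**Figure D4:**
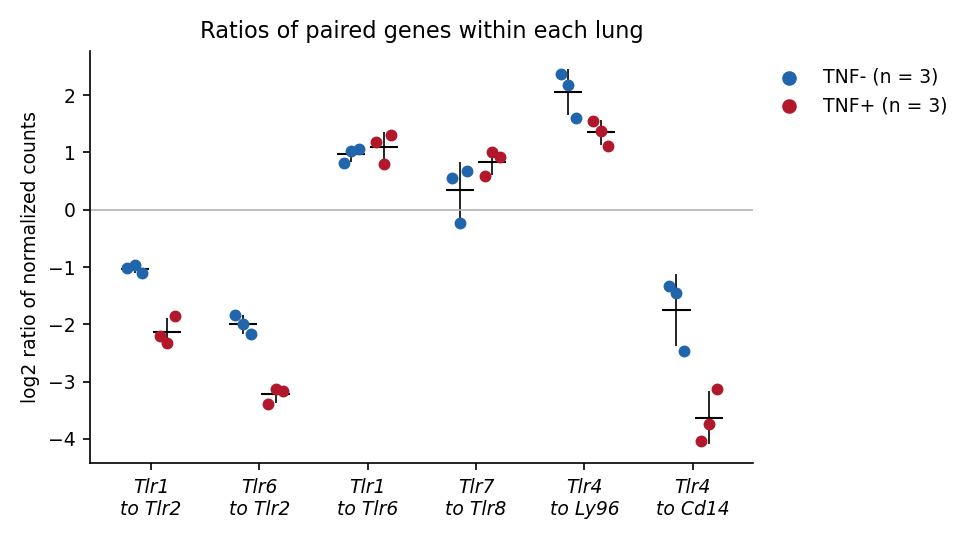
Log2 ratio of normalized counts of 6 gene pairs in each TNF- (blue) and TNF+ (red) lung, with mean and SD as lines and equal counts at the grey line. The groups are apart for Tlr1 and Tlr6 over Tlr2 and for Tlr4 over Ly96 and Cd14, and overlap for Tlr1 over Tlr6 and Tlr7 over Tlr8.

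Around the receptors, 72 genes of the pathway were listed by role, Tlr11 and Tlr12 included, and 69 could be tested. Of these, 41 were higher and 6 lower in TNF+ lungs (edgeR), against 24.0% and 23.4% of all genes tested, and the median log2 fold change was 0.71 against 0.03.

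Of the 6 co-receptors, 4 were higher (24.0% of all genes tested) and 1 lower (23.4%), with a median log2 fold change of 1.73. Ly86, which encodes the MD-2-like partner of Cd180, had 1544, 1155 and 1311 normalized counts in TNF+ lungs and 171, 171 and 204 in TNF- lungs, with a log2 fold change of 2.87 (adjusted p = 7.38e-06, edgeR). Cd14 rose from 783 ± 189 to 4908 ± 1568 (SD, n = 3), Ly96 from 53.7 ± 5.99 to 150 ± 24.8 and Cd180, a receptor-like protein of B cells and myeloid cells, from 227 ± 26.0 to 896 ± 12.2. Cd36, a scavenger receptor that assists Tlr2 with Tlr6 and is also abundant in lung capillary endothelium, fell from 14601, 12348 and 11344 to 3664, 3310 and 3210 (log2 fold change -1.91, adjusted p = 2.18e-05, edgeR).

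Of the 8 genes for folding, trafficking and processing, 7 were higher and none lower (0 of 8), where 24.0% of all genes tested were higher. The TNF+ lungs were above the TNF- lungs without overlap for all 8 and for 30.5% of all genes tested. Unc93b1, the chaperone that carries endosomal receptors out of the endoplasmic reticulum, had 10625, 10365 and 10785 normalized counts in TNF+ lungs and 2275, 2249 and 2987 in TNF- lungs, a log2 fold change of 2.08. The lysosomal proteases Ctss and Ctsb, members of the cathepsin family that cleaves receptor ectodomains, rose by 3.22 and 2.10 on the log2 scale. The general receptor chaperones Hsp90b1 and Cnpy3 rose by 0.40 and 0.29, and both missed the cutoff without TNF+ lung 1 (0.29 and 0.20) or TNF- lung 3. Hsp90b1 also missed it without TNF- lung 2, and Cnpy3 without TNF+ lung 2 or TNF- lung 1.

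Of the 6 adaptors, 4 were higher (24.0% of all genes tested). Ticam2, the bridge between Tlr4 and TRIF, had 274, 259 and 303 normalized counts in TNF+ lungs and 38.2, 42.2 and 36.4 in TNF- lungs, and its change was 2.84 on the log2 scale (adjusted p = 1.46e-05, edgeR). Pik3ap1, an adaptor to phosphoinositide 3-kinase, rose by 1.15. Myd88, which serves all of these receptors but Tlr3, rose less, from 1074 ± 13.4 to 1469 ± 150 (SD, n = 3), or by 0.45 on the log2 scale. Ticam1, which encodes TRIF, had a log2 fold change of 0.41 (adjusted p = 0.0483, edgeR) and missed the cutoff without TNF+ lung 2 (0.30), TNF+ lung 3, TNF- lung 1 or TNF- lung 3. Tirap, the adaptor that brings Myd88 to Tlr2 and Tlr4, stood at 352 ± 27.8 against 388 ± 41.8 (SD, n = 3) and did not pass (log2 fold change -0.14).

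Of the 16 kinases and ubiquitin ligases, 5 were higher, none was lower (0 of 16) and the median log2 fold change was 0.19. The share called higher was near the 24.0% of all genes tested. Ikbke, the interferon-related kinase IKK-epsilon, rose by 2.64 and Irak2, a kinase of the Myd88 complex, by 0.97. Tbk1, another of the 5, missed the cutoff without TNF- lung 1 (log2 fold change 0.30, adjusted p = 0.0559, edgeR). Traf6, a ubiquitin ligase not called with all lungs (-0.18), passed as lower without TNF- lung 3 (-0.29, adjusted p = 0.033, edgeR). Of the 3 interferon regulatory factors, Irf5 rose from 758 ± 83.9 to 2756 ± 165 normalized counts (SD, n = 3), or by 1.86 on the log2 scale (adjusted p = 1.18e-05, edgeR). Irf7 did not pass, with 1026, 846 and 1224 in TNF+ lungs and 648, 841 and 851 in TNF- lungs, but passed as higher without TNF+ lung 2 (log2 fold change 0.53, adjusted p = 0.0366, edgeR).

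Of 8 inhibitors of receptor signalling, 5 were higher and 1 lower, beside 24.0% and 23.4% of all genes tested. Tnfaip3, which encodes the ubiquitin-editing enzyme A20, had 7516, 4960 and 5162 normalized counts in TNF+ lungs and 416, 434 and 466 in TNF- lungs, a log2 fold change of 3.74. Its partner Tnip1 rose by 1.85 and Irak3, a kinase-dead brake on the Myd88 complex, by 1.75. Tollip fell by 0.36 on the log2 scale. Without TNF+ lung 1 and TNF- lung 1 together, the call was lost for Tollip (adjusted p = 0.0688, edgeR) and for Il1rl1 and Socs1, which were among the 5 higher genes (0.0701 and 0.0745). A20 and Tnip1 restrain TNF receptor signalling too.

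Of 7 genes for endogenous ligands, 2 were higher, a share near the 24.0% of all genes tested, and 4 were lower, where 23.4% of all genes were. Saa3, an acute phase protein described as a ligand of Tlr2 and Tlr4, had 20104, 26383 and 21211 normalized counts in TNF+ lungs and 49.7, 45.0 and 189 in TNF- lungs. This was a change of 7.89 on the log2 scale, or of 8.89 without TNF- lung 3. Hmgb1, a nuclear protein released by damaged cells, rose by 0.46 and missed the cutoff without TNF+ lung 1 and without TNF- lung 2, with 0.32 in the latter case. The neutrophil genes S100a8 and S100a9, which are also in the list of neutrophil markers, had log2 fold changes of -1.04 and -1.77, and the matrix gene Vcan had -1.48. S100a9 had 458, 177 and 253 normalized counts in TNF+ lungs against 839, 727 and 1451. S100a8 missed the cutoff without TNF+ lung 2, TNF+ lung 3 or TNF- lung 3.

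Of 16 target genes, 13 could be tested, and 11 were higher with none lower (0 of 13), where 24.0% of all genes tested were higher and 23.4% lower. The count of 0 lower rested on TNF+ lung 1 for Ptgs2, an enzyme of prostaglandin synthesis, which had 119, 26.9 and 22.7 normalized counts in TNF+ lungs and 98.4, 90.1 and 119 in TNF- lungs. The change of Ptgs2 was -0.90 on the log2 scale (adjusted p = 0.225, edgeR) with all lungs and -2.08 (adjusted p = 0.00139, edgeR) without that lung. Most of these genes answer to TNF as well as to Toll-like receptors. Acod1, which makes itaconate in activated macrophages, had 969, 1335 and 1160 counts in TNF+ lungs and 9, 1 and 13 in TNF- lungs, a change of 7.43 on the log2 scale (adjusted p = 9.56e-06, edgeR). The neutrophil chemokine Cxcl2 had 1684, 200 and 244 counts against 10, 4 and 9, so its log2 fold change of 6.92 leaned on TNF+ lung 1 and was 4.88 without it. The row of Tnf itself rose by 3.62, and whether it holds reads of the human transgene was not tested. Il6 had 24, 5 and 12 counts against 2, 3 and 5, and Il12b had 7, 2 and 7 against 8, 30 and 18, both too low for the filter. Ifnb1 had 0 counts in all 6 lungs, under a floor of 3 counts per lung.

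**Figure D5:**
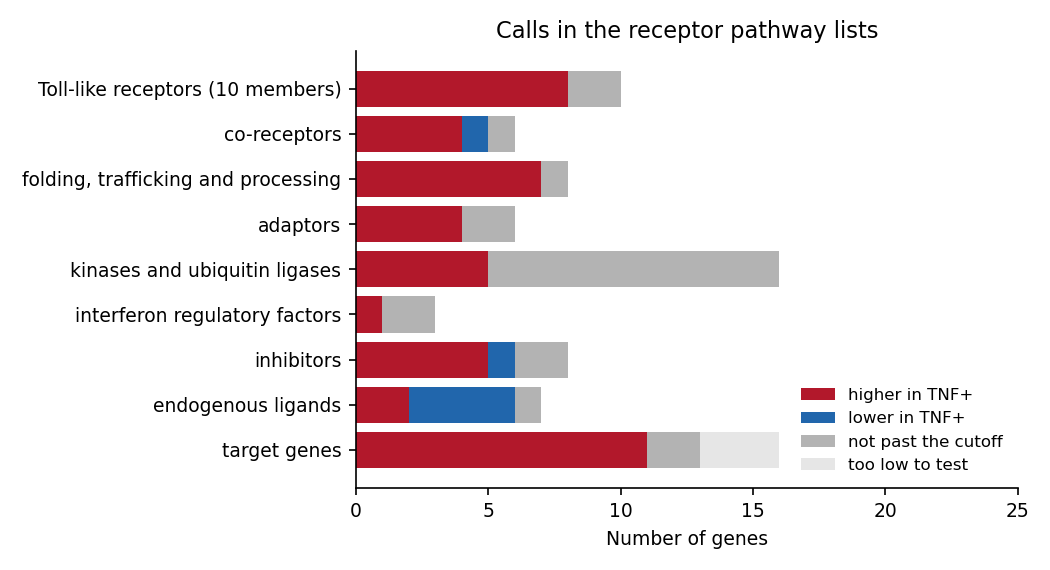
Number of genes in each role that were higher (red), lower (blue), not past the cutoff (grey) or too low to test (light grey) in TNF+ against TNF- lungs. Red fills 8 of the 10 receptors and 11 of the 16 target genes, and 5 of the 16 kinases and ubiquitin ligases.

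Markers of the cell types that carry these receptors moved between the groups too, and their part in the receptor results was not tested. Their counts stand beside 24.0% of all tested genes called higher and 23.4% called lower. All 6 myeloid markers (Itgam, Csf1r, Adgre1, Cd68, Lyz2 and Ptprc) were higher in TNF+ lungs, and their sum was 254996 to 282876 normalized counts there against 87672 to 88603. Lyz2 held most of it, and without Lyz2 the sums were 56360 to 65634 against 9787 to 10739. Of 6 alveolar macrophage markers, Marco, Chil3 and Itgax were higher, Siglecf was lower and Pparg and Ear2 did not pass, with sums of 72158 to 118504 against 8220 to 10184. Marco made up most of the TNF+ sums, and without it they were 22616 to 23715 against 7960 to 9299. Of 6 neutrophil markers, Csf3r was higher and 4 were lower, and the sums overlapped at 1911 to 2930 and 2586 to 4417. Without Csf3r they were apart, at 494 to 1127 and 1697 to 2979. Of 6 B cell markers 4 were higher (8791 to 9794 against 4012 to 7103), of 5 T cell markers 4 (9737 to 14061 against 1047 to 1881, most of it Cd4, and 1594 to 1748 against 768 to 1324 without that gene), of 5 conventional dendritic cell markers 2 (2366 to 2706 against 1699 to 1951), and of 5 plasmacytoid dendritic cell markers 3, with 1 lower (3107 to 3726 against 1706 to 2285). The endothelial markers were lower for 5 of 5 (35164 to 41915 against 69349 to 86138), the epithelial for 5 of 6 (439627 to 577070 against 883705 to 1113314) and the fibroblast for 4 of 5 (24945 to 26219 against 35188 to 55255). Leaving out the most abundant gene also moved the ratio of the mean sums, TNF+ over TNF-, from 1.38 to 2.4 for conventional dendritic cells (Zbtb46), from 1.66 to 2.64 for plasmacytoid dendritic cells (Bst2) and from 0.481 to 0.305 for epithelium (Sftpc). For the B cell, endothelial and fibroblast lists it moved from 1.75 to 1.62, 0.48 to 0.379 and 0.555 to 0.472. No marker in these lists was at 0 in any of the 6 lungs. Of the skeletal muscle genes Acta1, Ckm, Myh4 and Tnnt3, 3 of 4 were lower, but their sum of 41970 in TNF- lung 1 stood apart, with 840 and 781 in TNF- lungs 2 and 3 and 365 to 896 in TNF+ lungs, and the groups overlapped for Myh4 and Tnnt3, both called lower. Of the 4 squamous genes only Krt5 and Rptn could be tested, both lower, with 2501 and 2279 normalized counts in TNF- lung 1 and at most 53.3 and 93.9 in the other TNF- lungs, and Krt13 was at 0 in at least 1 lung.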

How the data were processed

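Poly(A) RNA of 6 whole lungs was sequenced from stranded libraries, 1 library per mouse, and the 3 mice of each genotype are separate animals. Per the labels and the paper, the authors trimmed the reads with Trimmomatic (version 0.36 in the processing notes, while the paper gives an earlier one), mapped them to GRCm38.p5 with STAR (version 2.5.2b), counted with featureCounts and deposited raw counts per gene symbol without normalization. The counting version, strand setting and annotation are not given in the sources used here. All 6 value columns were used, matched to the mice by genotype and number.

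Genes passing filterByExpr (19199 of 49568) were fitted with edgeR (version 4.0.16, R version 4.3.3), TMM factors and genotype as the only term, and quasi-likelihood p-values were Benjamini-Hochberg adjusted over all of them. The authors' own choice, DESeq2 (version 1.42.0), and limma-voom (version 3.58.1) were alternatives. The standard error is the log2 fold change over the square root of F. Programs were checked on simulated counts. Ratios added 2 to each normalized count. Exon lengths, positions and shared windows came from GENCODE M21 (GRCm38), promoters from RefSeq. The RNA of 1 lung per mouse is the unit of every test.

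The members, pathway lists and markers were chosen with earlier results of these data known. Named are all 10 receptors, fixed pathway genes (Tlr11, Tlr12, Cd14, Ly96, Cd180, Ly86, Unc93b1, Myd88, Tirap, Ticam1, Ticam2, Irf5, Irf7, Irak3 and Tnf), the 2 largest rises and falls past the cutoff in each list, and for each receptor the 3 genes with the nearest profile. Hsp90b1, Cnpy3, S100a8, Tbk1, Traf6, Ptgs2, Il1rl1, Socs1, Il6, Il12b, Ifnb1 and Gm45542 were added after their values were seen, as were marker sums without the most abundant gene of a list.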

Additional observations from a re-analysis of the deposited data

How the results depend on the processing

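Over 16 alternatives the number of receptor genes called higher stayed at 7 or 8 and the number called lower at 0. The 16 were DESeq2, limma-voom, DESeq2 size factors, total counts only, both other filters, robust dispersion, the replicate block, a minimum absolute log2 fold change of 1, each lung left out, and TNF+ lung 1 with TNF- lung 1 left out together. The count of 7 came from the minimum fold change, which Tlr4 did not reach. With each lung left out, log2 fold changes stayed between 3.27 and 3.54 for Tlr2, 2.81 and 3.19 for Tlr13, 1.48 and 1.91 for Tlr8, and 0.57 and 0.83 for Tlr4 (adjusted p up to 0.0361, edgeR). Tlr3 and Tlr5 stayed below 0 and past no cutoff, at adjusted p-values of 0.0894 to 0.368 and 0.0955 to 0.35. Pathway genes called higher numbered 29 to 42 and lower 4 to 7. The labels give same-numbered mice only a shared number. The correlations of their deviations from the group means were -0.15, 0 and -0.24, which cannot exclude a shared litter or batch. The replicate block called 8 receptors and 39 pathway genes higher and 6 pathway genes lower. The 6 ratios kept their sign under 7 alternatives each, a smaller added count and each lung left out. Depth limits genes with few counts, including some above the floor of 3 counts in several lungs, such as Il6 and Il12b, which were too low to test. The lowest receptor count was 94.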

Other observations

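For each receptor gene, the genes with the most similar profile were sought among 14998 others whose mean log2 CPM reached 1, by the Euclidean distance of mean-centred log2 CPM over the 6 lungs. The lungs fall into their genotype groups, so a small distance mostly reflects a similar fold change, and it is given as a description. None of the 30 nearest genes, 3 for each receptor, was itself a receptor of the 10 (0 of 30). The other receptors were a very small part of the 14998 candidates, so this count says little about how alike the receptors are. Nearest to Tlr2 were Tnfaip2, a gene induced by TNF (distance 0.20), A530064D06Rik (0.24) and Hpgds, the hematopoietic prostaglandin D synthase (0.30), where the median distance of all genes from Tlr2 was 4.22. Nearest to Tlr13 were Arl11 (0.24), Mpeg1, which encodes the macrophage pore-forming protein perforin-2 (0.33), and Rnf149 (0.35).

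Tlr1 was nearest to Sirpb1a (0.24), Samsn1 (0.25) and Pou2f2, a transcription factor of B cells (0.29), and Tlr6 to Prcp (0.08), Birc3, which encodes an inhibitor of apoptosis (0.15), and Il10ra, a chain of the interleukin-10 receptor (0.16). Tlr7 was nearest to Itgax, which encodes CD11c (0.21), the chemokine Cxcl16 (0.25) and Gm9025 (0.26). Tlr8 had no neighbour as close, with Naip3 at 0.34 and the lysosomal protease Lgmn and 1700112E06Rik both at 0.40. Tlr9 was nearest to Mark1 (0.22), the chemokine Cxcl12 (0.23) and Ddhd1 (0.27), and Tlr4 to 0610009B22Rik (0.11), Tm6sf1 (0.14) and Pik3c2a (0.15). The receptors that did not pass the cutoff lay near genes with as little change, Tlr5 near Aar2 (0.05), Crebrf (0.06) and Pcyt1a (0.08), and Tlr3 near Lifr (0.11), Agfg1 (0.11) and Dcun1d2 (0.13).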
